A study of Mus musculus with 18 samples.

Results

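The synaptonemal complex and the chromosome axis beneath it were followed in juvenile mouse testis through 8 genes that encode their proteins: Sycp1, Syce1, Syce2, Tex12, Sycp2, Sycp3, Hormad1 and Hormad2. The members were taken by gene name, as all probe sets annotated to 1 of these 8 genes alone. That gave 8 probe sets, 1 for each gene, out of 45037 on the array. All 8 passed the filter on low signal, as did 34764 probe sets in all, which stood for 15307 genes.

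The material was total RNA of homogenised whole testes from repro9 homozygotes and from wild-type animals aged 14 or 17 days (dpp, days postpartum). The allele repro9 lies in Mybl1, which encodes A-MYB, a transcription factor of male germ cells in meiotic prophase. The groups were 5 arrays of repro9/repro9 mutants and 3 of wild type at 14 dpp, and 5 arrays of repro9/repro9 mutants and 5 of wild type at 17 dpp. The series' design text picked the younger age for early to middle pachytene cells and the older one for late pachytene and diplotene cells. Strain background and the animals behind each array are not given in the sources used here. P-values therefore measure only the spread between these arrays, which may in part be technical. In whole-testis RNA, fewer cells of a type and less RNA per cell cannot be told apart.

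In meiotic prophase each pair of sister chromatids is organised along a protein axis, and the axes of homologous chromosomes are then joined along their length by the synaptonemal complex. SYCP2 and SYCP3 form the lateral elements on the axes, SYCP1 dimers span the gap as transverse filaments, and SYCE1, SYCE2 and TEX12 belong to the central element where filaments from both sides meet. HORMAD1 and HORMAD2 bind axes that are not yet synapsed and leave them as synapsis proceeds. In mouse testis the complex assembles in zygotene, is complete in pachytene and comes apart in diplotene.

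Control probe sets split the 18 arrays into 3 sets, for which the labels have no name, and at 17 dpp all members but Syce2 differed more between sets than between genotypes. The signal ratio of the 3' to the 5' control probe set of β-actin was 2.31 to 2.92 on 7 arrays (set 1), 1.45 to 1.49 on 4 arrays (set 2) and 103 to 125 on 7 arrays (set 3). The same ratio for Gapdh was 0.913 to 1.05 in set 1, 0.728 to 0.748 in set 2 and 5.24 to 18.5 in set 3. Arrays thus also differed within set 3. Set 1 held 2 mutant and 2 wild-type arrays of 14 dpp and 2 mutant and 1 wild-type array of 17 dpp. Set 2 held 3 mutant arrays and 1 wild-type array, all of 14 dpp, and set 3 held 3 mutant and 4 wild-type arrays, all of 17 dpp. Each genotype comparison is therefore given as fitted over all arrays, with the set as a block, and inside each set, and age is compared within set 1. Median signals of the arrays lay between 88.7 and 149. The brighter of the 2 Mybl1 probe sets read 68.1 to 249 in mutants and 512 to 775 in wild type at 14 dpp. At 17 dpp it read 83.4 to 293 in mutants and 1076 to 3959 in wild type, and genotypes overlapped at neither age. The dimmer one read 5.99 to 86.6 in mutants and 122 to 208 in wild type at 14 dpp, without overlap. At 17 dpp it did overlap, with 50.7 to 176 in mutants and 96.1 to 218 in wild type. Of all tested probe sets, 3.08% were lower without overlap in mutants at 14 dpp and 3.31% at 17 dpp.

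At 17 dpp the arrays of set 3 differed from those of set 1 by up to 3.22 on the log2 scale in the same genotype. The Hormad1 probe set was 2.93 higher on set 3 than on set 1 in mutants and 3.22 higher in wild type, while the median of all tested probe sets differed by −0.10 in mutants and −0.16 in wild type. Sycp3 was 2.00 and 2.09 higher in these genotypes, and Sycp1, Sycp2 and Tex12 were 0.98 to 1.57 higher. Syce1 went the other way, at −2.68 in both, as did Hormad2, at −2.68 in mutants and −1.90 in wild type. Syce2 moved least, at 0.26 in mutants and 0.03 in wild type. The cause of these shifts was not tested.

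**Figure D1:**
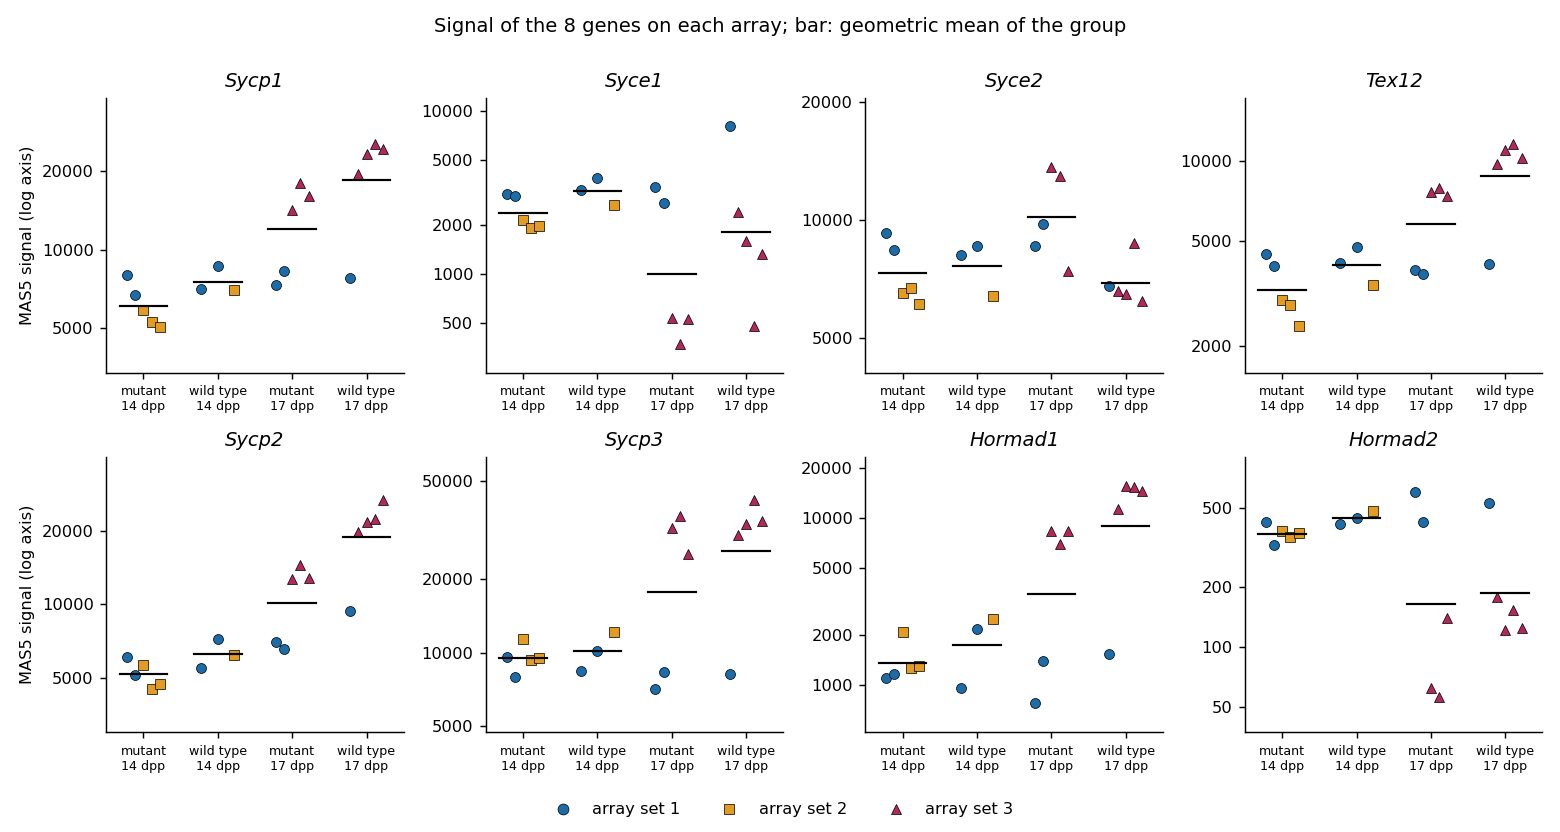
Signal of the 8 probe sets on each of the 18 arrays (log axis), 1 panel per gene, with mutants left of wild type at each age, marker shape for array set and a bar for the geometric mean of a group. At 17 dpp the set 3 arrays of Hormad1 read 7016 to 15573, far above the set 1 arrays at 775 to 1520, while those of Syce1 read 375 to 2413, below set 1 at 2730 to 8032.

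The upstream sequences of 6 genes are shown because these passed the genotype test at 17 dpp in the block fit or within set 3: Sycp1, Sycp2, Syce1, Tex12 and Hormad1 fell in mutants, and Syce2 rose. Each line holds the 250 bases before an annotated start, read on the strand of the gene, from RefSeq (GRCm38.p6). Capitals mark matches on either strand to 3 motifs. They are the MYB core AACNG, which reads CNGTT on the opposite strand; the E-box, whose letters are CACGTG on both strands; and an E2F6-type motif spelled GGCGGGA, which reads TCCCGCC on the opposite strand. The Sycp1 window is chr3:102936101-102936350 on the minus strand, the Sycp2 window chr2:178407659-178407908 minus, the Syce1 window chr7:140787855-140788104 minus, the Tex12 window chr9:50561269-50561518 minus, and the Hormad1 window, before the upstream one of its 2 starts, chr3:95559427-95559676 plus. The Syce2 window, before the downstream one of its 2 starts, is chr8:84872008-84872257 plus.
Sycp1: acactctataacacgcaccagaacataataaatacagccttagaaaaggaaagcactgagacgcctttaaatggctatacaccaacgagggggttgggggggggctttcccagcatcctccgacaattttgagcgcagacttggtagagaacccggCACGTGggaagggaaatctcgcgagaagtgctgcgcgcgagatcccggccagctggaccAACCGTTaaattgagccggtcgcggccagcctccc
Sycp2: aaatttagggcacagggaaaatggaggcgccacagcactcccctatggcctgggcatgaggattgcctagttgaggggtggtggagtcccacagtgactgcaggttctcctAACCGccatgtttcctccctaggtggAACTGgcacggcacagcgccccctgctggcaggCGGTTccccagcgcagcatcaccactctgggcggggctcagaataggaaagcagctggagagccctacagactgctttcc
Syce1: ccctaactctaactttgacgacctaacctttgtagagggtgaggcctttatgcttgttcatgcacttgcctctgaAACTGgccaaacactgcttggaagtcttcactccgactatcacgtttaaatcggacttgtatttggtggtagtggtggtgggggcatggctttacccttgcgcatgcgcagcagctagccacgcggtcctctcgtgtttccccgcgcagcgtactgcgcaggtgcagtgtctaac
Tex12: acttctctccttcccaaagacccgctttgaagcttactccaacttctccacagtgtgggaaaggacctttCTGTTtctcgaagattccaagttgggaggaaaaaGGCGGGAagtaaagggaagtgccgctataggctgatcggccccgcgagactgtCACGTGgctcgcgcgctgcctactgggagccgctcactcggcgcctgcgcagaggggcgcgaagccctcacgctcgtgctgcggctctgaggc
Hormad1: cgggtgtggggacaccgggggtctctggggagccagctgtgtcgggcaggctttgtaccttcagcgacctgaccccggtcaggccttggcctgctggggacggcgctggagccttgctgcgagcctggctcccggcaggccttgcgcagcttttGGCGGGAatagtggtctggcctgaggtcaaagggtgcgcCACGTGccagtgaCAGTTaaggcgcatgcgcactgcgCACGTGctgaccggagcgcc
Syce2: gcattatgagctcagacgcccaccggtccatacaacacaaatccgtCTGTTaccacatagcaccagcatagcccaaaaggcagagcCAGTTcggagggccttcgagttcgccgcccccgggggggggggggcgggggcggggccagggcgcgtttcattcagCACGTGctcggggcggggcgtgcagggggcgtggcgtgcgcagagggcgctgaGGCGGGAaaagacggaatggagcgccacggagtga

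A MYB core stood in all 10 windows of the 8 genes, and also in 74.2% of the 32851 windows of the same length before annotated mouse starts. In Sycp1 its 2 matches overlap on opposite strands as AACCGTT and begin 35 and 33 bases before the start. Sycp2 had 3 matches, 139, 113 and 80 bases before its start, whereas Syce1 had 1, at 175 bases. The E-box stood in 6 of the 10 windows, of 5 genes (Sycp1, Sycp3, Syce2, Tex12 and Hormad1), against 6.02% of all windows. The E2F6-type motif stood in 4 windows, of Syce2, Tex12 and Hormad1, against 9.75% of all windows. The 2 Hormad1 windows begin at bases 95559427 and 95559429 and hold the same matches, so these are counted for each window. The 2 Syce2 windows overlap from base 84872008 to base 84872110. Their CTGTT and CAGTT matches are the same sites and are likewise counted for each window. The window before the upstream Syce2 start, which is not printed, holds neither an E-box nor an E2F6-type motif. As background, E-box and E2F6-type elements are known in mouse embryonic stem cells as binding sequences of a repressive complex that keeps germline genes silent. Both were searched for after the member windows had been read, so their shares describe these windows only. A match is not a site of binding, and no match says only that the letters are not in the window.

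**Figure D2:**
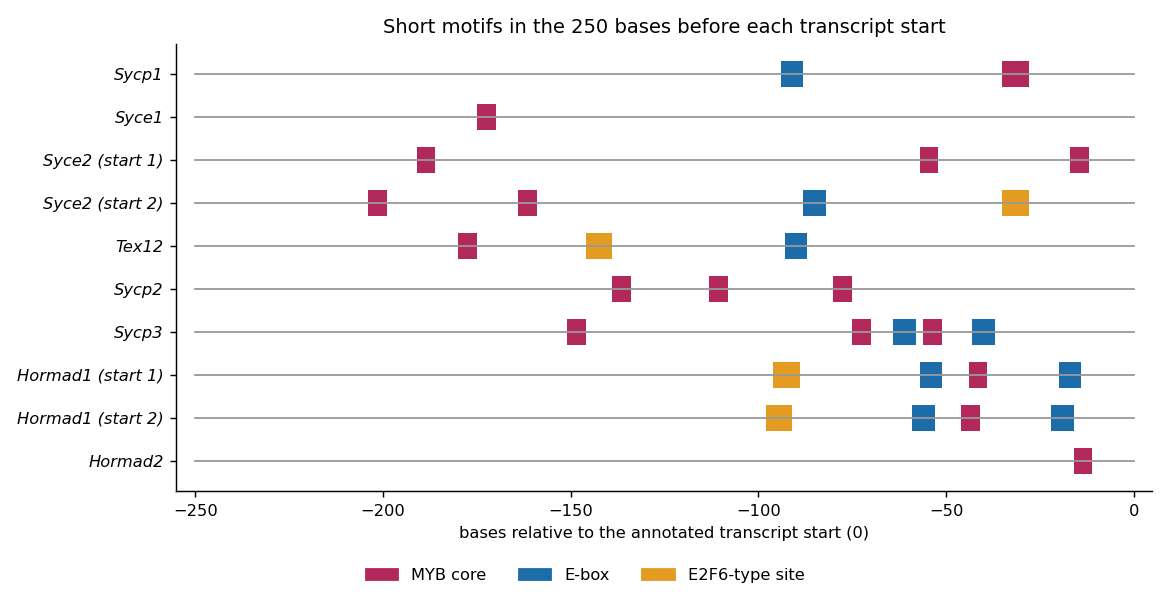
Position of each match to the MYB core, the E-box and the E2F6-type letters in the 250 bases before each annotated start of the 8 genes (horizontal axis in bases from the start). Every window holds a MYB core, and Sycp3 and Hormad1 hold 2 E-boxes each.

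The genotype comparison at 14 dpp asked whether mutants already differed at the age chosen for early and middle pachytene cells. None of the 8 members passed limma's test there at an adjusted p of 0.05, where 0.196% of all tested probe sets were lower in mutants and 0% higher. With the set as a block 0 of 8 passed as well, where 0.357% of all tested probe sets were lower and 0.0115% higher. The same held within set 1, against 0.201% lower and 0.0403% higher, and within set 2, against 0.0805% lower and 0.00863% higher. In the fit without the block, 0 members had an unadjusted p under 0.05, beside 2% of all tested probe sets. All 8 differences (mutant minus wild type) were negative, between −0.07 and −0.45 on the log2 scale, and all 8 limma adjusted p-values were 0.999988. With the set as a block they ran from −0.51 for Hormad1 to 0.05 for Syce2.

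Sycp1, the transverse filament gene, read 8003, 6695, 5863, 5300 and 5081 in mutants, against 7058, 8656 and 7005 in wild type at 14 dpp. Its difference was −0.30 ± 0.36 (limma standard error). Syce1 read 3079, 2992, 2149, 1914 and 1962 in mutants, against 3293, 3885 and 2662 in wild type, a difference of −0.45 ± 0.75. For both genes, as for all 8 members, the groups overlapped over all arrays, while 3.08% of all tested probe sets were lower without overlap in mutants and 2.37% higher. In set 1 alone the mutant arrays of Syce1 lay below those of wild type, as they did for 20.4% of all tested probe sets, with 24.9% higher.

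The remaining members overlapped between genotypes at 14 dpp as well. Syce2 and Tex12, whose products bind each other in the central element, read 6106 to 9272 and 2382 to 4449 in mutants, against 6385 to 8572 and 3393 to 4732 in wild type. The lateral element genes Sycp2 and Sycp3 read 4482 to 6044 and 7923 to 11339 in mutants, against 5465 to 7171 and 8404 to 12188 in wild type. Hormad1 read 1101 to 2072 in mutants and 947 to 2494 in wild type, and Hormad2 was the dimmest member at 326 to 422 in mutants and 412 to 480 in wild type. In set 2, with 3 mutant arrays against 1 wild-type array, 7 of the 8 members were lower in every mutant array, as were 25.9% of all tested probe sets, with 28.9% higher in every mutant array.

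The next comparison asked the same at 17 dpp, the age chosen for late pachytene and diplotene cells. In the fit over all arrays, limma called 0 of the 8 members, against 3.86% of all tested probe sets lower and 1.48% higher in mutants. Of the members, 2 had an unadjusted p under 0.05, Sycp2 and Syce2, as had 19.4% of all tested probe sets, and the unmoderated linear model called 0. Without the first wild-type array, the only one of its group in set 1, 4 members fell (Sycp1, Sycp2, Tex12 and Hormad1), against 4.6% of all tested probe sets lower and 6.75% higher. With the array set as a block, 5 of the 8 passed: Sycp2, Syce1, Tex12 and Hormad1 fell and Syce2 rose in mutants, against 8.05% of all tested probe sets lower and 10.8% higher. With quantile normalization added to the block, Sycp2, Syce1 and Syce2 passed and Tex12 and Hormad1 did not, against 8.49% of all tested probe sets lower and 8.49% higher. Within set 3 alone, 5 passed as well, Sycp1 in place of Hormad1, where 6.07% were lower and 5.45% higher over all tested probe sets. Within set 1, where 1 wild-type array stood against 2 mutant arrays and was assumed to vary like the other groups, 0 passed, against 2.6% lower and 0.25% higher. The median of the 8 differences was −0.62 over all arrays, while that of all 15307 genes was 0.26.

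Sycp2, a large lateral element protein that holds SYCP3 on the axis, passed in more of the alternative fits than any other member. Its 17 dpp values were 6972 and 6551 on set 1 and 12646, 14519 and 12770 on set 3 in mutants, against 9364 on set 1 and 19804, 21655, 22358 and 26685 on set 3 in wild type. All mutant arrays of a set lay below all wild-type arrays of that set, although the genotypes overlapped once sets were joined, as they did for all 8 members, beside 3.31% of all tested probe sets lower without overlap and 1.54% higher. Over all arrays the difference was −0.90 ± 0.27 with a limma adjusted p of 0.0659. With the set as a block it fell by 0.68 ± 0.12 on the log2 scale, which is 1.6-fold lower (limma adjusted p = 9.11e-04). Within set 3 it was −0.76 ± 0.15 (limma adjusted p = 0.00441), and within set 1 it was −0.47 ± 0.24 (limma adjusted p = 0.482). It passed with the block whichever of the 18 arrays was left out, at a highest limma adjusted p of 0.00464.

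Syce1, which links SYCP1 to the rest of the central element, had the largest fall among the members with the set as a block. The 17 dpp values were 3397 and 2730 on set 1 and 542, 375 and 531 on set 3 in mutants, against 8032 on set 1 and 2413, 1603, 479 and 1330 on set 3 in wild type. Within set 1 the mutants lay below the wild-type array, and within set 3 the ranges met only through the wild-type array at 479. The difference over all arrays was −0.86 ± 0.65 (limma adjusted p = 0.501). With the block it fell by 1.40 ± 0.29 on the log2 scale, 2.63-fold lower (limma adjusted p = 0.00274), and it was −1.40 within each of sets 1 and 3. It passed with the block when any of the 18 arrays was left out, at a highest limma adjusted p of 0.0157.

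Syce2, which forms the long fibres of the central element together with TEX12, was the member that moved up. It read 8559 and 9750.4 on set 1 and 13667, 12911 and 7396 on set 3 in mutants at 17 dpp, against 6788 on set 1 and 6576, 6458, 8727 and 6199 on set 3 in wild type. Both mutant arrays of set 1 were above the wild-type array, while on set 3 the lowest mutant array was below the highest wild-type array. On set 3 the Gapdh 3' to 5' ratio was 9.59 and 5.24 on the mutant arrays at 13667 and 12911. It was 7.29 on the wild-type array at 8727 and 13.5 to 18.5 on the other set 3 arrays. The part of this ratio in the Syce2 values was not tested. The difference was 0.56 ± 0.20 over all arrays (limma adjusted p = 0.114) and 0.59 ± 0.15 with the block, 1.51-fold higher (limma adjusted p = 0.0117). The median of all genes was itself 0.22 higher in mutants with the block. With the block and every array scaled to a common median, Syce2 was 0.42 higher (limma adjusted p = 0.021). Without the third mutant array of 17 dpp the block value no longer passed (limma adjusted p = 0.0506).

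Tex12 read 3880 and 3742 on set 1 and 7645, 7945 and 7425 on set 3 in mutants at 17 dpp, against 4089 on set 1 and 9817, 11048, 11629 and 10299.7 on set 3 in wild type. Within each set all mutants were lower. With the block Tex12 fell by 0.37 ± 0.11 on the log2 scale (limma adjusted p = 0.0282), against −0.60 ± 0.30 over all arrays (limma adjusted p = 0.284). Leaving out the third or the fifth mutant array or the third wild-type array of 17 dpp ended that call, at limma adjusted p-values of 0.0689, 0.0533 and 0.0545.

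Sycp1 read 7297 and 8286 on set 1 and 14222, 18022 and 16039 on set 3 in mutants, against 7785 on set 1 and 19514, 23308, 25455 and 24376 on set 3 in wild type. On set 3 every mutant array was lower, but on set 1 the wild-type array lay between those of the mutants. Its difference was −0.63 ± 0.31 over all arrays (limma adjusted p = 0.278) and −0.38 ± 0.13 with the block (limma adjusted p = 0.0512). Within set 3 it fell by 0.52 ± 0.15 on the log2 scale, 1.44-fold lower (limma adjusted p = 0.0311).

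Hormad1 and Hormad2 encode the proteins that mark unsynapsed axes. Hormad1 read 775 and 1387 on set 1 and 8417, 7016 and 8431 on set 3 in mutants, against 1520 on set 1 and 11413, 15573, 15501 and 14594 on set 3 in wild type. All mutants were lower within each set, and with the block Hormad1 fell by 0.76 ± 0.22 on the log2 scale, 1.69-fold lower (limma adjusted p = 0.0211). Over all arrays the difference was −1.37 ± 0.69 (limma adjusted p = 0.288). The block call ended without the fourth mutant array of 17 dpp (limma adjusted p = 0.0535).

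Hormad2 read 596 and 423 on set 1 and 61.8, 55.8 and 139 on set 3 in mutants, against 530 on set 1 and 178, 121, 153 and 124 on set 3 in wild type. The mutant values 61.8 and 55.8 lay under the 40th percentile of their arrays, at 84.2 and 90, and were the dimmest of any member. Genotypes overlapped in both sets, and the difference was −0.17 ± 0.57 over all arrays and −0.64 ± 0.26 with the block, with limma adjusted p-values of 0.911 and 0.091.

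Sycp3, the lateral element protein widely used to stain meiotic axes, did not pass the test in any of these fits. It read 7110 and 8353 on set 1 and 32105, 36182 and 25211 on set 3 in mutants, against 8155 on set 1 and 30185, 33551, 41707 and 34417 on set 3 in wild type. The genotypes overlapped in each set. The difference was −0.55 ± 0.46 over all arrays, −0.15 ± 0.13 with the block and −0.17 ± 0.16 within set 3, with limma adjusted p-values of 0.545, 0.466 and 0.529. Within set 3, 4 members had every mutant array below every wild-type array (Sycp1, Sycp2, Tex12 and Hormad1), as had 6.48% of all tested probe sets, and 0 had the reverse, which held for 8.64%. Within set 1, 4 members were lower in both mutant arrays (Sycp2, Syce1, Tex12 and Hormad1) and Syce2 was higher in both, while 26.5% of all tested probe sets were lower and 52.6% higher.

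**Figure D3:**
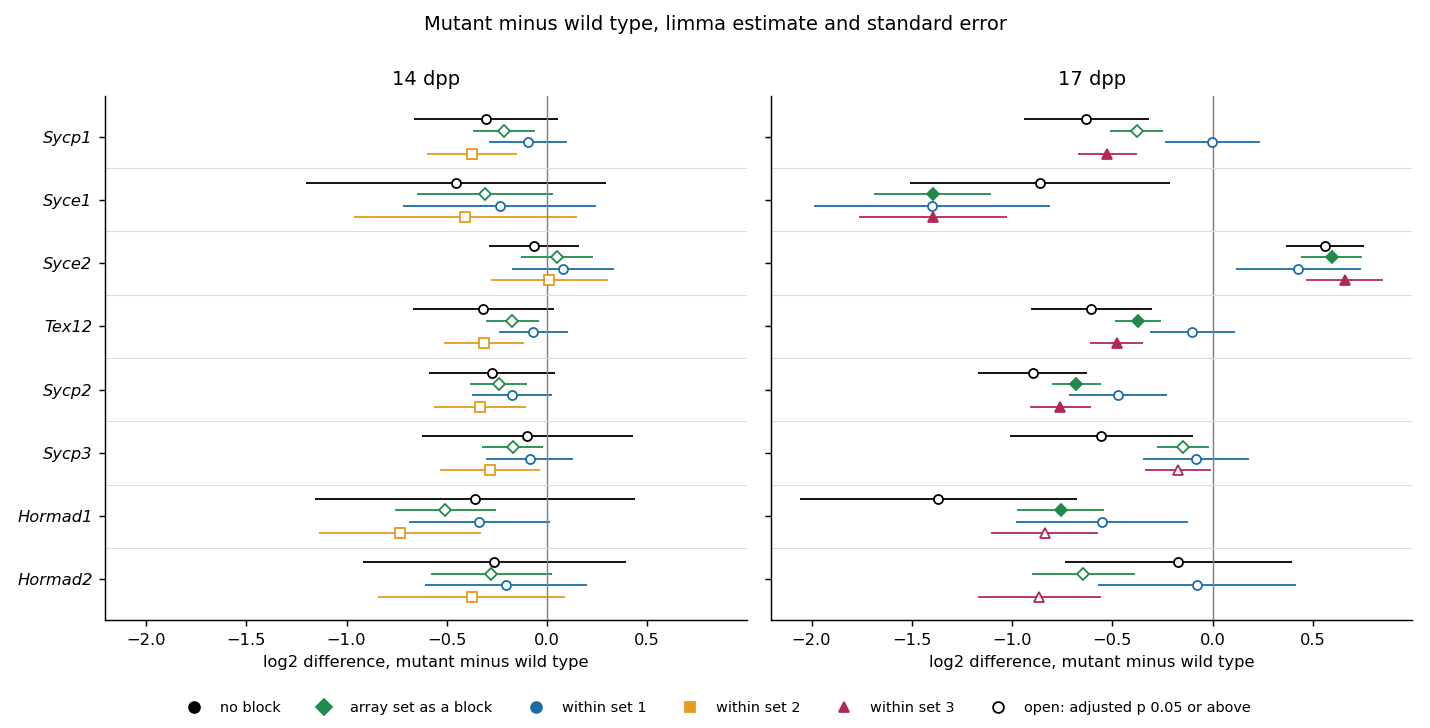
Mutant minus wild-type difference in log2 signal of each member, with limma standard errors, for 14 and 17 dpp, over all arrays, with set as a block and within sets, and filled markers for an adjusted p under 0.05. At 17 dpp with the block, Sycp2, Syce1, Tex12 and Hormad1 lie below 0 and Syce2 above it, while no member is filled at 14 dpp.

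Whether the genotype difference itself changed with age was tested as an interaction. No member passed limma's test, over all arrays or with the block, where 0.204% of all tested probe sets were called lower and 0% higher over all arrays, and 1.13% lower and 0.0633% higher with the block. None of the 8 was therefore shown to differ between genotypes more at 17 than at 14 dpp. The estimates with the block were −1.09 ± 0.45 for Syce1, 0.54 ± 0.24 for Syce2 and −0.44 ± 0.19 for Sycp2, with limma adjusted p-values of 0.324, 0.352 and 0.353.

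Over all arrays, 4 members were higher in wild type at 17 than at 14 dpp: Hormad1 by 2.40 ± 0.80, Sycp2 by 1.60 ± 0.31, Sycp1 by 1.30 ± 0.36 and Tex12 by 1.12 ± 0.35 on the log2 scale. Their limma adjusted p-values were 0.0408, 0.00456, 0.0211 and 0.0324, and 4.86% of all tested probe sets were called higher and 16.5% lower. With single arrays left out, 1 to 6 members passed. Without any 1 of the 14 dpp wild-type arrays or the fifth of 17 dpp, 1 member was higher, against 1.75% to 2.81% of all tested probe sets higher. Without the first wild-type array of 17 dpp, 5 members were higher and 1 lower, against 8.42% higher and 27.5% lower. In mutants 0 of the 8 passed, against 0.423% higher and 1.5% lower, with estimates from −1.24 for Syce1 to 1.39 for Hormad1. Without the first mutant array of 17 dpp, 4 members were higher and 1 lower, against 4.48% and 15.5% of all tested probe sets. Without the second, 3 were higher, against 3.41%, and without the first wild-type array of 17 dpp, 3 were higher, against 2.66%. All 3 arrays are of set 1. Since all set 3 arrays were of 17 dpp and all set 2 arrays of 14 dpp, age and set are largely mixed in these values. With the set as a block, Sycp2 was the 1 member that rose with age in wild type, by 0.69 ± 0.18 (limma adjusted p = 0.0279), against 3.06% of all tested probe sets higher and 4.57% lower. In mutants the block left 0, against 0.141% higher and 1.23% lower.

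On the arrays of set 1, which span both ages, Sycp2 read 6972 and 6551 at 17 dpp and 6044 and 5101 at 14 dpp in mutants, against 9364 at 17 dpp and 5465 and 7171 at 14 dpp in wild type. Its age difference there was 0.28 ± 0.20 in mutants and 0.58 ± 0.24 in wild type. Syce1 was 0.00 ± 0.48 in mutants and 1.17 ± 0.59 in wild type, where 8032 at 17 dpp stood above 3293 and 3885 at 14 dpp. Hormad1 was −0.12 ± 0.35 in mutants and 0.09 ± 0.43 in wild type, far from the 1.39 and 2.40 over all arrays. No member passed within set 1 in either genotype, where 1.22% of all tested probe sets were higher with age and 0.964% lower in wild type, and 0.0345% higher and 0.65% lower in mutants. The 17 dpp wild-type side of this comparison is 1 array.

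**Figure D4:**
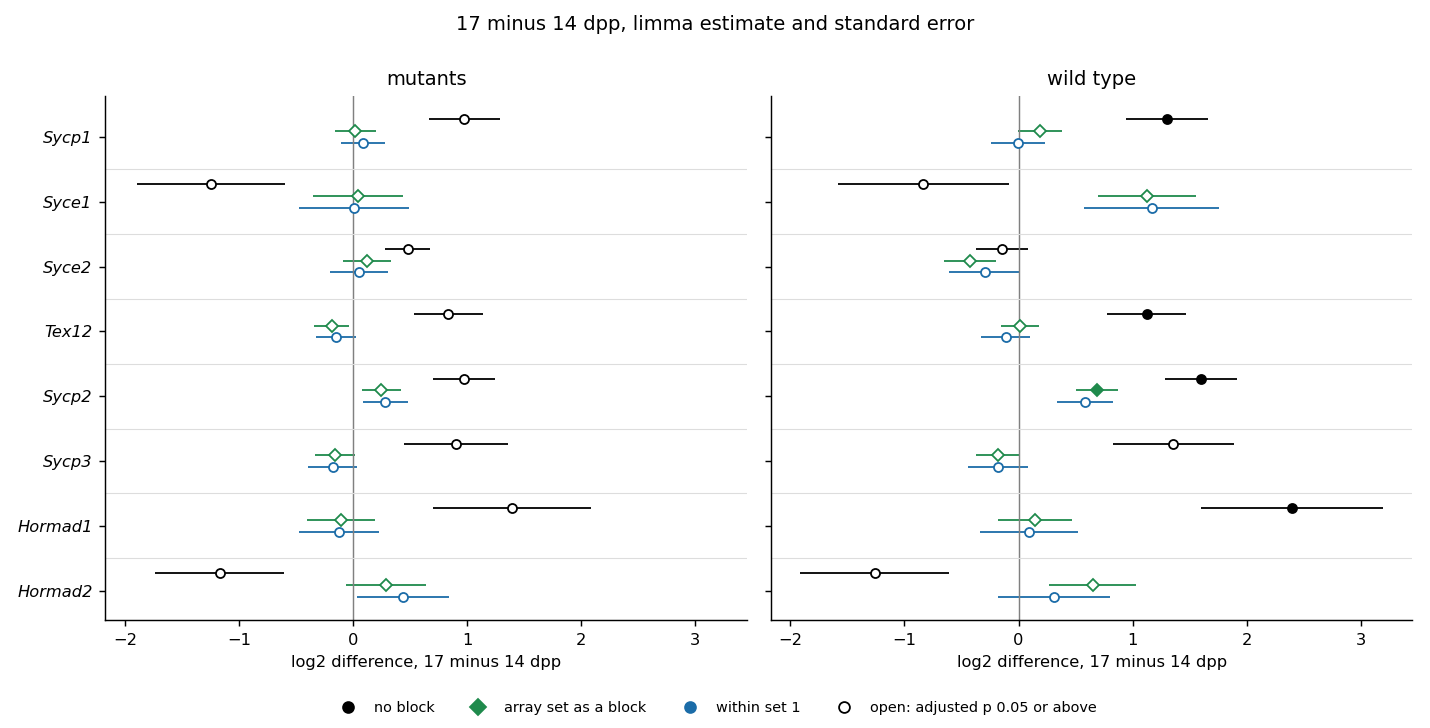
Difference between 17 and 14 dpp in log2 signal of each member, with limma standard errors, for mutants and wild type, over all arrays, with set as a block and within set 1, and filled markers for an adjusted p under 0.05. Hormad1 in wild type lies at 2.40 over all arrays and at 0.14 with the block, and Syce1 in wild type at −0.83 over all arrays and at 1.13 with the block.

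The order of the group means differed with the arrays taken. Over all arrays, where set 3 enters at 17 dpp only, Sycp1, Sycp2, Sycp3, Tex12 and Hormad1 ran from mutants at 14 dpp through wild type at 14 dpp and mutants at 17 dpp up to wild type at 17 dpp. Sycp2, for example, averaged 5164, 6240, 10138 and 18876 in that order (geometric means). The 17 dpp groups were the lowest for Syce1 and Hormad2, and Syce2 was highest in mutants at 17 dpp, at 10172. Every pair of neighbours in these orders had overlapping ranges, for all 8 genes. On set 1 alone, Sycp3 was lower at 17 dpp, at 7707 in mutants and 8155 in wild type, than at 14 dpp, at 8714 and 9252. Syce1 on set 1 was highest in wild type at 17 dpp, at 8032 on 1 array, against 3577 in wild type at 14 dpp. Hormad2 on set 1 averaged 502 in mutants and 530 in wild type at 17 dpp, above 371 and 427 at 14 dpp. The orders over all arrays therefore did not hold within set 1 for these 3 genes, nor for Sycp1, Tex12, Hormad1 and Syce2. On set 1, Tex12 and Hormad1 were lowest in mutants at 17 dpp, at 3811 and 1037. Sycp1 was highest there in wild type at 14 dpp, at 7816. Syce2 on set 1 averaged 8810 in mutants and 8342 in wild type at 14 dpp, the reverse of its order over all arrays. Sycp2 kept its order on set 1.

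The members did not share 1 pattern over the arrays once the mean of each array set was taken off. Over the 18 arrays, Sycp1 correlated at 0.87 with Tex12, 0.84 with Sycp2, 0.79 with Hormad1 and 0.66 with Sycp3, but at 0.36 with Syce1 and −0.45 with Syce2. Syce2 and Sycp2 correlated at −0.60. These values are descriptions over the same arrays of all groups, and genotype and age differences enter them. Among all 15306 other genes, the 3 most like Sycp1 were Stk17b, Zfp654 and Strbp at 0.87 to 0.88, with Tex12 at rank 4. For Tex12 they were Stk17b, Meioc and Sycp1, at 0.87 to 0.89, and for Hormad1 Zfp654, Meioc and Hectd2, at 0.88 to 0.91. For Sycp2 they were Glipr1l2, Lztfl1 and Spdya, at 0.95 to 0.96, and for Sycp3 Cdca4, Hmgb2 and Ints6, at 0.86 to 0.90. For Syce1 they were Dync2h1, Dnaaf2 and Fbxo15, at 0.95 to 0.97, for Syce2 Ninj1, Dbp and Brk1, at 0.96 to 0.97, and for Hormad2 Churc1, Cops8 and Sun1, at 0.88 to 0.93.

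Other genes of synapsis and the meiotic axis gave the surroundings of the members. Of 22 listed genes, 16 were tested, and 0 passed at 14 dpp in limma's fit over all arrays or with the block. At 17 dpp over all arrays 1 passed, against 3.86% of all tested probe sets lower and 1.48% higher. Atr, a checkpoint kinase of unsynapsed axes, fell by 1.19 ± 0.18 on the log2 scale (limma adjusted p = 3.02e-04). With the block 7 fell and 2 rose, against 8.05% of all tested probe sets lower and 10.8% higher. The 7 were Syce3 of the central element (−0.74), the meiotic cohesin subunit Stag3 (−1.06), Terb2 (−0.86) and Majin (−1.27) of the complex that ties telomeres to the nuclear envelope, Atr (−1.15), the break-forming Spo11 (−1.60) and the crossover factor Ccnb1ip1 (−0.60). Those that rose were the meiotic cohesin subunit Rec8 (0.86) and the X-linked Tex11 (0.61), which acts in synapsis and crossover formation. With the block, 1 of the 2 other Atr probe sets had the opposite sign. Majin read 43.4 to 496 in mutants and 206 to 1051 in wild type at 17 dpp. Its lowest mutant value lay under the lowest 40th percentile of any array, 49.2. The median over the 16 genes was −0.44 over all arrays and −0.40 with the block, beside 0.26 and 0.22 over all genes.

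Markers of the cells that express these genes were listed with earlier results of these data known. Their counts are therefore descriptions, not an independent readout. All 8 pachytene spermatocyte markers fell at 17 dpp over all arrays and 6 of 8 at 14 dpp, with median differences of −4.89 and −2.81. Of all tested probe sets, 3.86% and 0.196% were called lower in these fits. The pachytene markers were summed as well. Their summed signal at 14 dpp was 2983 to 4277 in mutants, against 12275 to 18005 in wild type. At 17 dpp it was 3508 to 5371 in mutants, against 58714 to 117755 in wild type. These sums add linear signals, so the brightest genes weigh most. In wild type at 17 dpp the geometric mean of Ldhc was 36094, beside 636 for Pgk2. Of 7 preleptotene to zygotene markers, 2 rose and 1 fell at 17 dpp, against 1.48% of all tested probe sets higher and 3.86% lower. Their sums were 18014 to 23802 in mutants and 15744 to 23337 in wild type.

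Summed signals of other testis cell types reached higher in mutants at 17 dpp. Of all tested probe sets, 1.48% were called higher and 3.86% lower over all arrays at that age. With the block the shares were 10.8% higher and 8.05% lower. Of 10 Sertoli markers 1 rose over all arrays and 4 with the block, with sums of 51220 to 86410 in mutants and 35864 to 59477 in wild type. Of 9 spermatogonial markers 0 passed over all arrays and 4 rose with the block, with sums of 8897 to 18147 in mutants and 4227 to 10702 in wild type. Of 5 macrophage markers 1 rose, with sums of 5413 to 8878 in mutants and 2879 to 5122 in wild type. Bright genes weigh most in these sums as well. Among Sertoli markers, Clu and Amhr2 had geometric means of 30314 and 24321 in mutants at 17 dpp, beside 78.7 for Amh. How often sums over other genes part between genotypes was not computed. With sets joined, the macrophage sums did not overlap between genotypes, while those of Sertoli cells and spermatogonia did. Those of the 4 Leydig, 4 peritubular myoid, 4 endothelial and 5 round spermatid markers overlapped too. Within each set, however, the spermatogonial sums did not overlap. On set 1 they were 15226 to 18147 in mutants and 10702 on the 1 wild-type array. On set 3 they were 8897 to 10532 in mutants and 4227 to 7480 in wild type. The Sertoli, Leydig, myoid, endothelial and round spermatid sums overlapped on set 3. Of the Leydig, myoid, endothelial and round spermatid lists, 0 markers passed over all arrays. With the block, 2 macrophage, 1 myoid and 1 round spermatid marker rose, and 3 preleptotene to zygotene markers rose and 3 fell. The round spermatid markers were dim at 17 dpp. Geometric means of Acrv1, Tnp1 and Prm2 were 39.9 to 77.7, beside 40th percentiles of 49.2 to 90.0 on these arrays. Those of Prm1 and Spaca1 were 101 to 311. No marker was at 0 on any array. The part of these cell type differences in the values of the 8 members was not tested.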

How the data were processed

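Whole-testis RNA was measured on 18 Affymetrix arrays. The values deposited by the authors are linear MAS5 signals, an intensity for each probe set and array; GCOS is named in the series' design text and MAS5 in the submitters' processing notes, without a version. The trimmed mean of all values was 500 on sets 1 and 2 and 395 on set 3. No normalization between arrays was added.

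A probe set was tested if it lay above the 40th percentile of its array on at least 3 arrays; the brightest tested probe set annotated to 1 gene stood for the gene. Log2 signal was fitted with limma 3.58.1 (R 4.3.3), 1 mean per group, empirical Bayes with an intensity trend, two-sided, Benjamini-Hochberg over 34764 probe sets, threshold 0.05. Each ± is a limma standard error, and the number of arrays limits precision. The script was tested on simulated data. Array sets were split at β-actin ratios (3' over 5' control probe set) of 1.9 and 10, and entered as a fixed term or as separate group means. Alternatives were each array left out, other scalings, an offset, no filter, array weights, an unmoderated model, the replicate number as a block and the submitters' threshold of 0.025.

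All probe sets of the 8 genes are named; pathway genes are named where they passed, and for likeness the 3 highest correlations. Lists of spermatogonial, preleptotene to zygotene, pachytene, round spermatid, Sertoli, Leydig, myoid, macrophage and endothelial markers and of synapsis genes were used. The members and lists were chosen with earlier results of these data known. Replicate numbers at 14 dpp correlated at 0.283, 0.355 and 0.385 (log2 signals less the group mean, between arrays of 1 number). Each pair lay within 1 array set, so number and set cannot be told apart. At 17 dpp numbers 1, 3, 4 and 5 also lay within 1 array set each, at 0.777, 0.226, 0.385 and 0.207. Number 2 spanned sets 1 and 3, at −0.227. The numbers thus did not all pair at 17 dpp, and number and set are largely mixed there too. Detection calls and protein sequences were not used here.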

Additional observations from a re-analysis of the deposited data

Results flagged for a closer look

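In the 24 combinations of gene and group with 4 or more arrays, 8 held an array far from the others of its group, where chance alone gives about 1 in 20. Of these, 6 were the first wild-type array of 17 dpp, which is the only array of its group in set 1, so its distance and the array set cannot be told apart. Its log2 signal was the lowest of the group for Sycp1 (12.93), Sycp2 (13.19), Sycp3 (12.99), Tex12 (11.997) and Hormad1 (10.57), and the highest for Hormad2 (9.05). The fourth wild-type array of 17 dpp was the highest for Syce2 at 13.09, and it also had the lowest Syce1 signal of its group, 479. The third mutant array of 14 dpp was the highest for Hormad1 at 11.02, which is a signal of 2072 beside 1101 to 1294 on the other mutant arrays of that age.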

How the results depend on the processing

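Counts are members called of 8 by limma, each with the share of all tested probe sets called in the same fit. At 17 dpp the genotype comparison called 0 (5.33%) over all arrays, 5 with the array set as a block (18.8%), 5 within set 3 (11.5%), 5 with the replicate number as a block (10.4%), and 1 each without set 3 (6.66%), with a common median (4.19%), with quantile normalization (5.22%) and with array weights (4.17%). Scalings tried with the set block after the data had been seen called 6 with a common median (13.3%) and 3 with quantile normalization (17%). Leaving out single arrays gave 0 to 4 over all arrays (4 without the first wild-type array of 17 dpp, 11.4%) and 3 to 6 with the set block (3 without the third mutant array of 17 dpp, 15.3%). At 14 dpp array weights called 2, Sycp1 and Tex12, both lower (5.6% lower, 9.81% higher over all). The age comparison in mutants called 0 (1.92%) over all arrays, 4 with a common median (4.96%), 1 with log2(signal + 16) (4.38%), 8 with array weights, 6 higher and 2 lower (35.9%), 1 with the replicate block (5.34%) and 0 to 5 with single arrays left out. In wild type it called 4 (21.4%), then 1 with the set block (7.63%), 0 within set 1, 1 without set 3 (10.5%), 2 with quantile normalization (14.6%), 2 at the threshold of 0.025 (11.5%), 7 with array weights, 5 higher and 2 lower (50.6%), and 1 to 6 with single arrays left out. At 17 dpp the replicate numbers follow the array sets except for number 2, so the replicate block is not separate from the set block. The replicate block left the count at 0 for 14 dpp and the interaction. The cause of these moves was not tested.

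Signs turned under some alternatives. Among them were 3 of the 4 members called higher with age in wild type over all arrays: Sycp1 was −0.0058 and Tex12 −0.11 in set 1, and Hormad1 −0.18 without set 3, none of which passed. The other turns were of estimates not called over all arrays. At 14 dpp Syce2 was 0.049 with the set block, 0.079 in set 1, 0.010 in set 2, 0.060 with the replicate block and −0.19 to 0.019 with arrays left out; Sycp3 was 0.052 with array weights and −0.23 to 0.034 with arrays left out. At 17 dpp Hormad2 was −0.63 to 0.22 with arrays left out. In the interaction, Sycp1 was 0.093 in set 1 and 0.30 without set 3, Tex12 0.22 without set 3, and Sycp3 0.024 with the block, 0.0048 in set 1 and 0.017 without set 3. Hormad2 was −0.37 with the block, −0.27 with quantile normalization, −0.12 with array weights and −0.37 to 0.48 with arrays left out, and Syce1 −0.89 to 0.13. With age in mutants, block, set 1 and no set 3 gave −0.16, −0.18 and −0.30 for Sycp3, 0.042, 0.0047 and 0.36 for Syce1, −0.11, −0.12 and −0.37 for Hormad1, and 0.29, 0.44 and 0.44 for Hormad2; Tex12 was −0.19 with the block and −0.15 in set 1. In wild type they gave −0.18, −0.18 and −0.31 for Sycp3, 1.13, 1.17 and 1.31 for Syce1, and 0.65, 0.31 and 0.26 for Hormad2, and Syce2 was 0.13 with a common trimmed mean and 0.21 with a common median. Of all these values, Syce1 with age in wild type without set 3 passed (limma adjusted p = 0.0224).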
